A study of Homo sapiens with 6 samples.

Results

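The interferon-induced transmembrane (IFITM) genes IFITM1, IFITM2, IFITM3 and IFITM10 were taken from the gene count table by name, 4 of its 58735 genes. All 4 were among the 17844 genes with enough counts to be tested. They had been picked because of their difference between the 2 sample groups, with IFITM1 on one side and the other members on the other. That difference is therefore given here as a description with no test. Polyadenylated RNA was sequenced from HepaRG, an established human liver progenitor line that forms hepatocyte-like and biliary-like cells when kept in DMSO. The cells had been differentiated in 1.8% DMSO and transfected with siRNA for 48 h, and all 6 libraries came from cells that then were loaded for 24 h with the fatty acids oleate (oleic acid, 800 µM) and palmitate (palmitic acid, 400 µM). In 3 libraries the treatment is labelled PTPF and in 3 it is labelled STATF, and neither name is spelled out. The protocol names siRNAs aimed at the transcription factor STAT3 and at the receptor tyrosine phosphatase PTPRD, and a control siRNA. No control library was analysed here, so each value compares one siRNA-treated group with the other. The labels do not say whether the 3 libraries of a group came from separate cultures, so a p-value reflects only how far these libraries scatter, and that scatter may be technical.

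IFITM proteins are small membrane proteins that share the CD225 domain and hinder the fusion of enveloped viruses with the cell. IFITM1 sits mostly at the cell surface, whereas IFITM2 and IFITM3 carry a longer amino-terminal stretch with an endocytosis signal and act mostly in endosomes. Interferons induce IFITM1, IFITM2 and IFITM3 through STAT and IRF transcription factors that bind interferon-stimulated response elements (ISRE) in their promoters. Less is known of IFITM10.

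IFITM1, IFITM2 and IFITM3 lie next to each other on chromosome 11 and have coding sequences so alike that short reads of one can resemble those of another. The first coding exon of each and the second coding exon of IFITM1 are shown, because the opposite directions depend on telling these transcripts apart. Capitals mark bases that differ from, or have no partner in, a relative, which is IFITM3 for IFITM1 and IFITM2, and IFITM2 for IFITM3. All come from the GENCODE 29 annotation of GRCh38, without the stop codon. The first coding exons lie at chr11:314171-314356 (IFITM1) and chr11:308193-308438 (IFITM2) on the plus strand and at chr11:320565-320813 (IFITM3) on the minus strand, and the second coding part of IFITM1 lies at chr11:314922-315110.
IFITM1 first exon: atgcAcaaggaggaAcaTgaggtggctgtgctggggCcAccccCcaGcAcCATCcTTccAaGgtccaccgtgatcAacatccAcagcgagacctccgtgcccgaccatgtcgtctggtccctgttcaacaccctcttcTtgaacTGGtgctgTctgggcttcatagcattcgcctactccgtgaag
IFITM2 first exon: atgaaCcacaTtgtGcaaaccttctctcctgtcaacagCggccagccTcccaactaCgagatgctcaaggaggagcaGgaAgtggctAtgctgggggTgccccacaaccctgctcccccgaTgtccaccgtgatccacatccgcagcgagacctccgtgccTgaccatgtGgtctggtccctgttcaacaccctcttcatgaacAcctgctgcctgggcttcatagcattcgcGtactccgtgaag
IFITM3 first exon: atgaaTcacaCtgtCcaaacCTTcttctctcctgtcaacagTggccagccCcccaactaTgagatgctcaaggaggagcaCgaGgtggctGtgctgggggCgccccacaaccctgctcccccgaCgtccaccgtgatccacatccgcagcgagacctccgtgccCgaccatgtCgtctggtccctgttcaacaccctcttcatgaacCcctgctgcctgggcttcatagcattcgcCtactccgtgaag
IFITM1 second exon: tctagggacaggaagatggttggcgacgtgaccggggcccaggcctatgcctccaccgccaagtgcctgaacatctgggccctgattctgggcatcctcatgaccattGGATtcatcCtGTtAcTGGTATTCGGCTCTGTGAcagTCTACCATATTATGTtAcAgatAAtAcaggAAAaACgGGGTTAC
IFITM2 and IFITM3 were identical at 372 of 396 aligned bases over both coding exons (93.9%). IFITM1 was identical to IFITM3 at 294 of 336 aligned bases (87.5%), with a longest identical run of 141 bases, and to IFITM2 at 287 of 336 (85.4%). IFITM10 stood apart, with 68.9% to 70.7% identity to the other members and no identical run longer than 18 bases. The second coding exon of IFITM1 is alike in its first part and differs toward its end, with 58 capitals in 189 bases.

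The members also share exon bases with annotated neighbours. IFITM1 (ENSG00000185885) spans chr11:313506-315272 on the plus strand, and IFITM2 (ENSG00000185201) spans chr11:307631-315272 on the same strand, because 1 annotated IFITM2 transcript reaches into the last exon of IFITM1. The bases at chr11:314922-315272 belong to both genes. These 351 bases make up 32.5% of the exon bases of IFITM1 and 22.7% of those of IFITM2, and they hold 189 of the 375 coding bases of IFITM1. How reads that fall on 2 genes were counted is not given in the sources used here, so the counts of both genes are uncertain in that stretch. IFITM3 (ENSG00000142089), at chr11:319669-327537 on the minus strand, shares 287 bases (21.3%) with the antisense noncoding gene AC136475.5, which had 21 counts in all libraries labelled PTPF and 15 in those labelled STATF. IFITM10 (ENSG00000244242), at chr11:1732410-1750591 on the minus strand, shares 1062 bases (22.2%) with the same-strand gene AC068580.4. That gene stood at 2.25 ± 0.687 CPM (counts scaled to the size of the library; SD, n = 3) in libraries labelled PTPF and 2.35 ± 0.925 (SD, n = 3) in those labelled STATF. Of all stretches of 75 bases in the annotated transcripts, 29.8% of those in IFITM1, 22.7% in IFITM2 and 8.05% in IFITM3 also occurred in another member. For IFITM10 the share was 0.

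**Figure D1:**
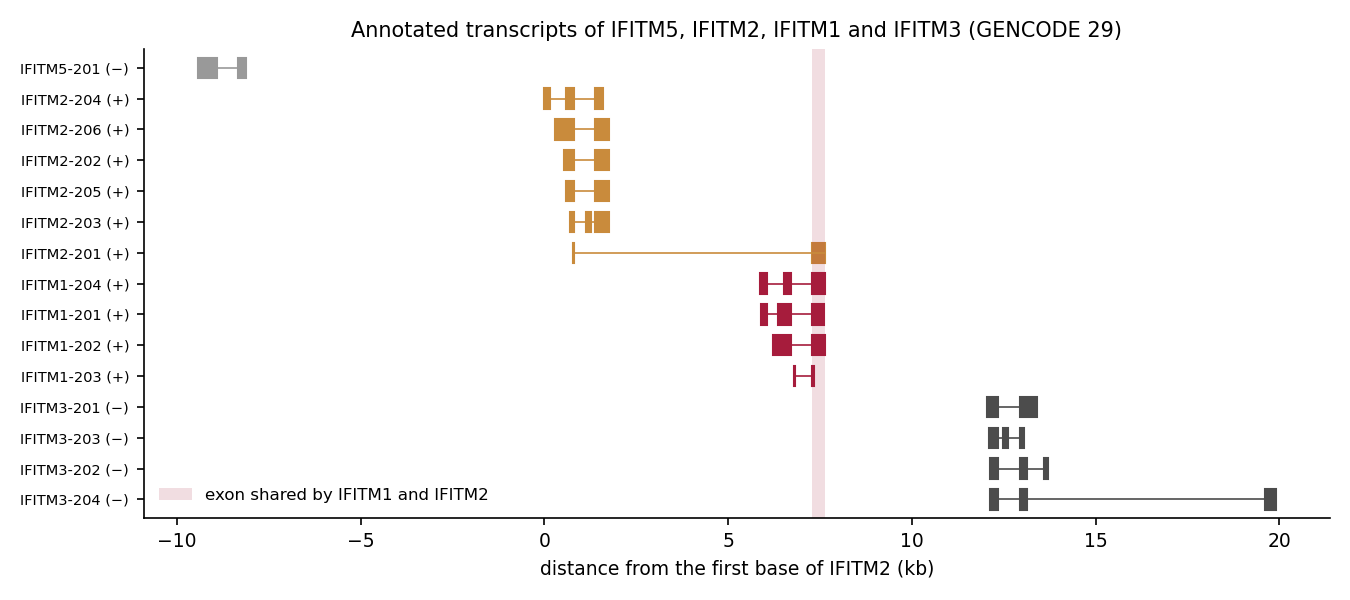
Annotated transcripts of IFITM5, IFITM2, IFITM1 and IFITM3, with exons as boxes and introns as lines, drawn to scale by distance in kb from the first base of IFITM2. The shaded band marks the 351 exon bases shared by IFITM1 and IFITM2, which 1 IFITM2 transcript reaches across a long intron.

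Promoter sequence of 2 of the 4 members, IFITM1 and IFITM3, was matched by symbol in RefSeq (GRCh38.p14). Both stretches run from 150 bases before the annotated start to 10 bases into the transcript, 5′ to 3′ on the strand of the gene. Capitals mark matches to an ISRE-like motif, GAAA repeated after any 2 bases, or to TTCNNNGAA, the core of the gamma-activated site (GAS) that STAT dimers bind. They are shown because the 2 genes differed in opposite directions. The IFITM1 stretch is chr11:313890-314049 on the plus strand and the IFITM3 stretch is chr11:320851-321010 on the minus strand.
IFITM1 promoter: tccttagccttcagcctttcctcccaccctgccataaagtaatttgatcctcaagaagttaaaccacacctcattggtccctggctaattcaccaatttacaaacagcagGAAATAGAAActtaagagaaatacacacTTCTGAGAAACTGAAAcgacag
IFITM3 promoter: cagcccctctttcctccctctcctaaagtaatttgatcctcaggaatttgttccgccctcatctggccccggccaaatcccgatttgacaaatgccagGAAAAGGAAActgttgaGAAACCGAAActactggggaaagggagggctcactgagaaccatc
The IFITM1 stretch held 2 ISRE-like matches, at -40 to -31 and at -6 to 3 with the first base of the RefSeq transcript as 0. It also held 1 GAS-like match at -12 to -4, which overlaps the second of them. The IFITM3 stretch held 2 ISRE-like matches, at -52 to -43 and -35 to -26, and no GAS-like match in these letters. Of 27305 RefSeq promoters of 300 bases, searched on both strands, 3.65% held at least 1 ISRE-like match, 0.271% held at least 2 and 7.88% held a GAS-like match. A match describes the letters and is not a binding site.

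Library totals ran from 33225627 to 40796767 counts, and a count of 0 allows up to 0.072 to 0.0918 CPM in a library (3 counts; counting error only). STAT3 was lower in libraries labelled STATF, at 119.6 ± 10.6 against 443 ± 12.2 CPM (SD, n = 3 each; edgeR adjusted p = 2.47e-18). PTPRD was at 11.5 ± 0.603 and 11.5 ± 1.37 CPM (SD, n = 3 each; edgeR adjusted p = 0.999). As PTPRD did not separate the groups, libraries are named by label. All 12 hepatocyte markers were above the count filter. Their summed level was 48105 to 55960.2 CPM in PTPF and 42977 to 44071 in STATF libraries. In PTPF, 3 markers were higher and 6 lower (75% called), with a median log2 change of -0.19. Over all genes tested, 21.6% passed, 10.1% higher and 11.6% lower. Abundant SERPINA1 and FGB raised the sum, at 23741 ± 2075 against 14464 ± 501 and 6607 ± 569 against 3174 ± 119.9 CPM (SD, n = 3 each). ALB was among the lower ones, at 12006 ± 797 against 14867 ± 549 CPM (SD, n = 3 each). Biliary and progenitor markers summed to 302 to 337 against 289.9 to 308 CPM, with EPCAM at 0 in all libraries. Of 6 tested, CD24 was higher in PTPF (log2 fold change 0.62), KRT19 and SOX9 were lower (-0.57 and -0.40), and the median was -0.26. Mesenchymal markers summed to 31 to 32.1 against 38.2 to 39.6 CPM. Immune and endothelial markers summed to 48.6 to 54.1 against 64.8 to 69.3 CPM, with the T-cell marker CD3E at 0 in all libraries, KDR lower and CD14 higher in PTPF. The part of these markers in the results was not tested. In bulk RNA, fewer cells of a type and less RNA per cell cannot be told apart.

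IFITM3, the endosomal member, had the most reads. Scaled levels were 717, 593 and 676 CPM in PTPF and 401, 429.9 and 434 CPM in STATF libraries, on 15047 to 23618 counts each. The lowest PTPF library was 1.37-fold above the highest STATF library, so the groups did not overlap. The mean was 662 ± 63.1 CPM against 422 ± 17.8 (SD, n = 3 each), a log2 fold change of 0.65 (SE 0.0653), or 1.57-fold higher in PTPF.

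IFITM2, the closest relative of IFITM3, differed more than any other member in the same direction. It stood at 241, 206 and 252 CPM in PTPF and at 86.7, 104 and 117 CPM in STATF libraries. Every PTPF library was at least 1.75-fold above every STATF library. The mean was 233 ± 24.3 against 103 ± 15.3 CPM (SD, n = 3 each), a log2 fold change of 1.18 (SE 0.12), or 2.27-fold higher in PTPF. For IFITM2 the spread between libraries, 10.4% and 14.9% of the mean, was far above the 1.12% and 1.58% that counting error gives.

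IFITM1, the cell-surface member, was scarce and went the other way. It had 23, 20 and 20 counts in PTPF and 65, 79 and 71 in STATF libraries, or 0.698, 0.545 and 0.613 CPM against 1.73, 1.9 and 1.9 CPM. All of these levels are above the limit that a count of 0 allows. The lowest STATF library was 2.48-fold above the highest PTPF library. The log2 fold change was -1.57 (SE 0.245), or 2.98-fold higher in STATF, with means of 0.619 ± 0.0766 and 1.84 ± 0.0949 CPM (SD, n = 3 each). With 63 counts in all PTPF libraries together, counting error alone gives a spread of 21.8% there, above the 12.4% observed.

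IFITM10 lies over a megabase from the cluster and differed least. Its levels were 15.5, 16.5 and 15.2 CPM in PTPF and 12.2, 11.6 and 11.8 CPM in STATF libraries. The groups did not overlap, but the gap between their nearest libraries was only 1.25-fold. The mean was 15.7 ± 0.695 against 11.9 ± 0.283 CPM (SD, n = 3 each), a log2 fold change of 0.41 (SE 0.0805), or 1.33-fold higher in PTPF.

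**Figure D2:**
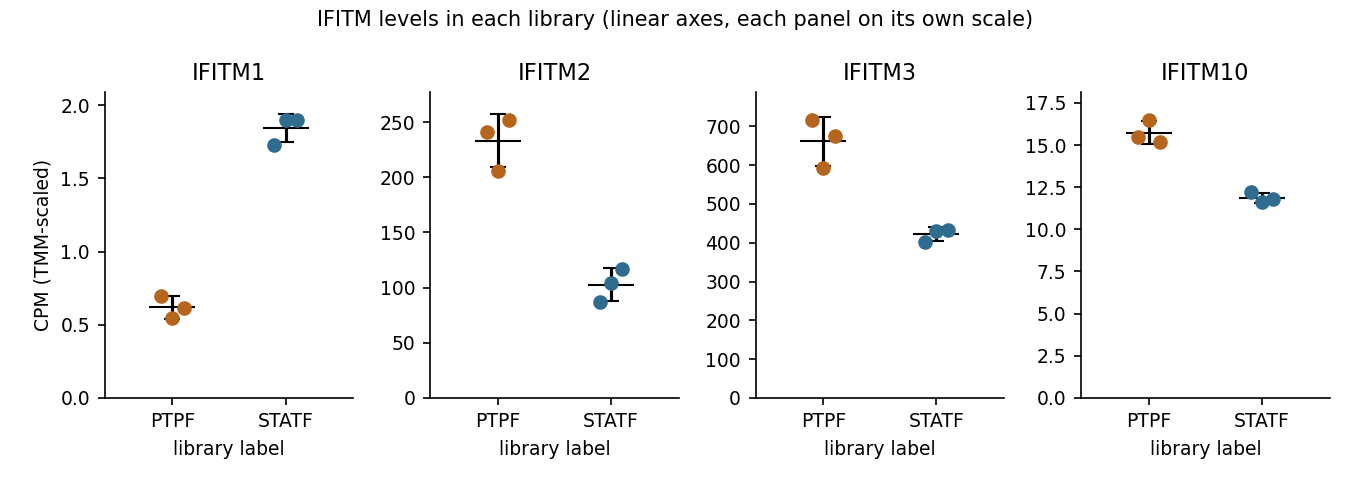
Level of each IFITM gene in CPM (TMM-scaled; linear axes from 0, 1 scale per gene) in the 3 PTPF and 3 STATF libraries, with points for libraries and bars for the mean and SD. IFITM3, IFITM2 and IFITM10 are higher in PTPF and IFITM1 is higher in STATF, and no gene's groups overlap.

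The groups did not overlap in any of the 4 members. Over all genes tested that held for 35.7%, of which 17.3% were higher and 18.4% lower in PTPF, but the members were chosen on this contrast and nothing is read from their count. Among the 17844 genes tested, the median log2 change was 0.00, and 90% lay between -0.60 and 0.53. IFITM1 stood at percentile 0.555 and IFITM2 at percentile 99.4 of that range, IFITM3 at 96.6 and IFITM10 at 91.9.

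Summed over the 4 members, the family was higher in PTPF. The sum was 974, 816 and 945 CPM in PTPF and 502, 547 and 565 CPM in STATF libraries, with means of 911 ± 84.1 and 538 ± 32.5 (SD, n = 3 each) and a ratio of 1.69. IFITM3 made up 72.6% ± 1 of the sum in PTPF and 78.4% ± 1.57 in STATF. IFITM2 made up 25.6% ± 1.04 and 19% ± 1.74. IFITM1 was a small fraction of the family in every library, at 0.0678% ± 0.00351 in PTPF and 0.343% ± 0.00578 in STATF (SD, n = 3 each). The sum of IFITM1 and IFITM2 does not change with how counted reads of their shared exon were divided between them. It would change if such reads were left out or counted for both genes. The sum was 234 ± 24.4 CPM in PTPF and 104 ± 15.4 in STATF (SD, n = 3 each). Nearly all of it was IFITM2, at 233 and 103 CPM, so the sum does not bear on the direction of IFITM1.

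Balance within the family differed too. There were 2.98, 2.88 and 2.68 IFITM3 counts for each IFITM2 count in PTPF and 4.62, 4.14 and 3.7 in STATF libraries. These ratios did not overlap either, so IFITM2 differed between groups by more than IFITM3 did. Because longer genes gather more reads, levels were compared between members per kilobase of exon. The order was IFITM3, IFITM2, IFITM10 and IFITM1 in all 6 libraries. In PTPF the levels were 491 ± 46.8, 151 ± 15.8, 3.29 ± 0.145 and 0.573 ± 0.0709 CPM per kilobase (SD, n = 3). In STATF they were 313 ± 13.2, 66.5 ± 9.92, 2.48 ± 0.0592 and 1.71 ± 0.0879 (SD, n = 3). Neighbours in this order were separated beyond their spread in both groups. IFITM10 and IFITM1 were nearest in STATF, where IFITM10 was 1.46 ± 0.113 times IFITM1 per kilobase against 5.81 ± 0.936 times in PTPF (SD, n = 3 each). If reads on shared exon bases were left out, the length to divide by would be the unshared part. By that length IFITM10 and IFITM1 were at 3.19 ± 0.0761 and 2.53 ± 0.13 in STATF (SD, n = 3). In PTPF they were at 4.23 ± 0.187 and 0.848 ± 0.105 (SD, n = 3).

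**Figure D3:**
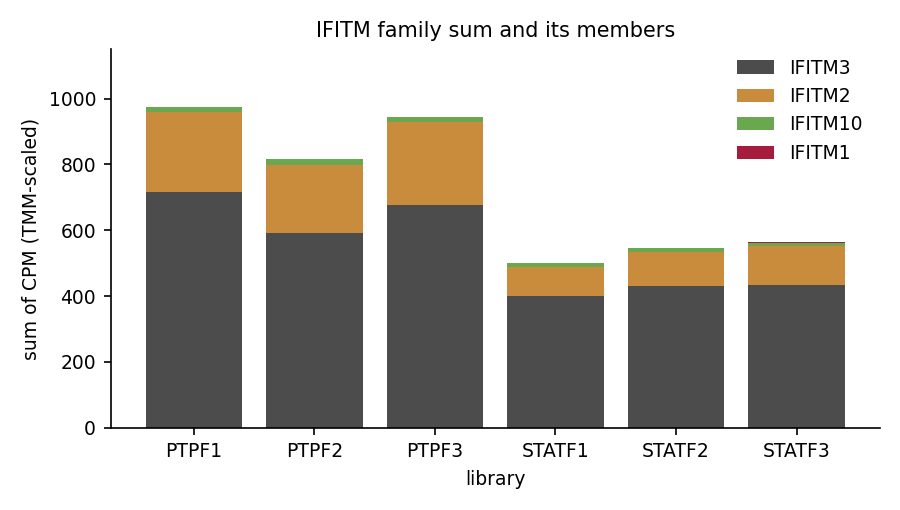
Summed IFITM level in CPM (bars from 0) in each of the 6 libraries, stacked by member. The 3 PTPF libraries reach 816 to 974 CPM and the 3 STATF libraries 502 to 565, and IFITM2 takes 24.7% to 26.7% of the sum in PTPF and 17.3% to 20.8% in STATF.

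Other members of the family were near or at 0. IFITM5, which acts in bone, had 1 count in all 6 libraries together. The pseudogene IFITM4P had 16 counts in PTPF and 31 in STATF, too few to be tested. Of 9 further CD225-domain relatives in the table, IFITM5 among them, 3 were tested, with a median log2 change of 0.38, and only TMEM91 passed (33.3% called, against 21.6% of all genes). It was at 2.06 ± 0.269 against 1.29 ± 0.122 CPM (SD, n = 3 each; log2 fold change 0.67, edgeR adjusted p = 0.0192), and its exons share 23.9% of their bases with other genes. PRRT2 lay on the other side, at 0.981 ± 0.132 against 1.42 ± 0.0994 CPM (SD, n = 3 each; log2 fold change -0.53, edgeR adjusted p = 0.119). Its groups did not overlap, which held for 35.7% of all genes tested, and other genes share 46.2% of its exon bases. The call of TMEM91 was lost without PTPF replicate 3 (edgeR adjusted p = 0.0912), STATF replicate 1 (edgeR adjusted p = 0.0864) or STATF replicate 3 (edgeR adjusted p = 0.0566).

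The differences were next set beside those of the chromosomal neighbours. Within 200 kb of the cluster 34 genes are annotated besides the members, and 12 were tested. Of these, 2 were higher in PTPF, none was lower, and the median log2 change was -0.07. By comparison 21.6% of all genes tested passed, 10.1% higher and 11.6% lower. PGGHG, which encodes a glucosidase that acts on hydroxylysine-linked sugars, lies 11.5 kb before the cluster and was at 22.6 ± 1.89 against 17.2 ± 1.89 CPM (SD, n = 3 each; log2 fold change 0.40, edgeR adjusted p = 0.000748). BET1L, a Golgi trafficking protein 100.2 kb before the cluster, was at 42.4 ± 0.373 against 36.9 ± 0.472 CPM (SD, n = 3 each; log2 fold change 0.20, edgeR adjusted p = 0.0144). The call of BET1L was lost without STATF replicate 2 (edgeR adjusted p = 0.0762), and 14.8% of its exon bases are shared with another gene.

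No other tested gene within 200 kb of the cluster passed the test. AC136475.3, an antisense transcript 18.6 kb before the cluster and named after its value was seen, came nearest to IFITM2 in size, at 0.93 (log2; SE 0.369, edgeR adjusted p = 0.0728). The antisense transcript AC136475.2, inside the span of IFITM2, was at -0.16 on the log2 scale (SE 0.348, edgeR adjusted p = 0.811). AC136475.1, which runs antisense across IFITM3, had 0.32 (SE 0.284, edgeR adjusted p = 0.484). On the far side SIGIRR, an inhibitory receptor of the interleukin receptor family, had -0.18 (SE 0.148, edgeR adjusted p = 0.43). Near IFITM10, 28 other genes are annotated, 8 were tested and none passed, with a median of 0.00. Its neighbour CTSD, the lysosomal protease cathepsin D, stood 2.16 kb away at 1152 ± 98.6 against 1072 ± 36.3 CPM (SD, n = 3 each; log2 fold change 0.10, edgeR adjusted p = 0.285). Other genes share 52.7% of the exon bases of CTSD, among them AC068580.4, which also overlaps IFITM10. KRTAP5-AS1, the nearest tested gene on the other side, had -0.50 (SE 0.429, edgeR adjusted p = 0.465).

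**Figure D4:**
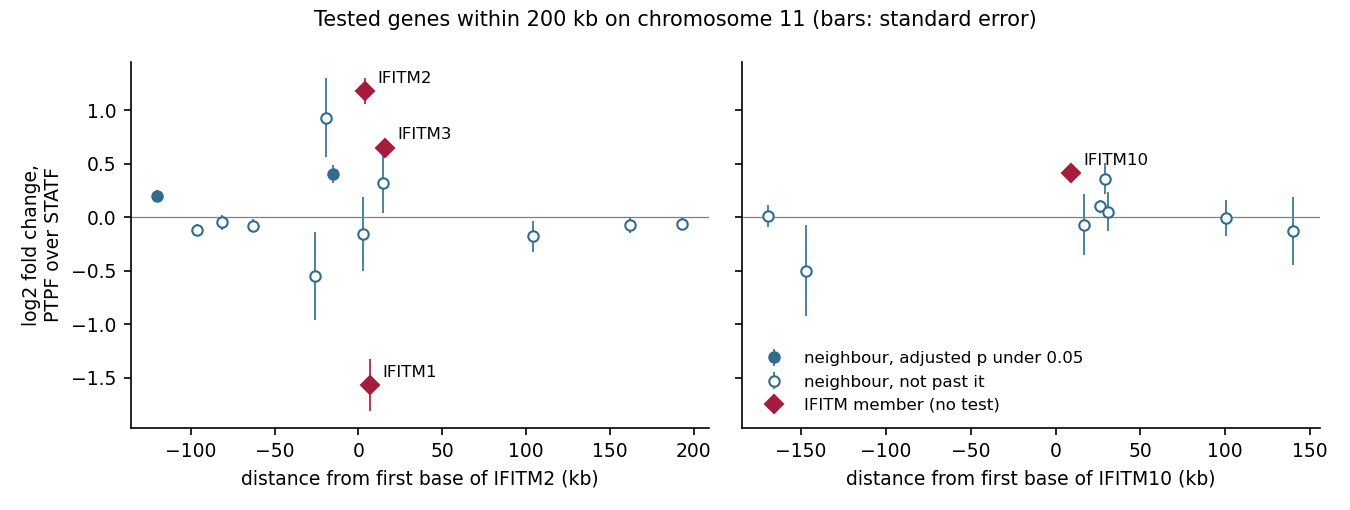
Log2 fold change (PTPF over STATF, with standard error) of each tested gene within 200 kb of the cluster (left) and of IFITM10 (right), by distance in kb from the first base of IFITM2 or IFITM10. Filled circles passed an adjusted p of 0.05, open circles did not, and diamonds are the IFITM genes, which were not tested.

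Genes of the interferon response were then examined, since IFITM1, IFITM2 and IFITM3 are counted among them. A list of 46 interferon-induced genes without the IFITM family was lower in PTPF almost throughout. Of the 46 tested, 45 were lower and none was higher (97.8% called, against 21.6% of all genes), with a median log2 change of -1.52. This pattern was known from earlier results of these data and is no independent support for the members. IFITM1, at -1.57, lay near the median of the list. IFITM2, IFITM3 and IFITM10 lay above all of its genes, of which the highest was HERC5, an ISG15 ligase, at -0.20 (edgeR adjusted p = 0.0678; named after its value was seen). Of the genes with the largest differences, the chemokines CXCL9 and CXCL11 had 0 and 8 counts in PTPF against 392 and 956 in STATF. The tryptophan-degrading enzyme IDO1 had 1 against 1539 counts, and the antiviral proteins RSAD2 and MX2 had 6 against 584 and 16 against 617. CXCL10, a ligand of the same receptor as CXCL9 and CXCL11, was at 3.39 ± 0.679 against 80.5 ± 9.72 CPM (SD, n = 3 each).

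**Figure D5:**
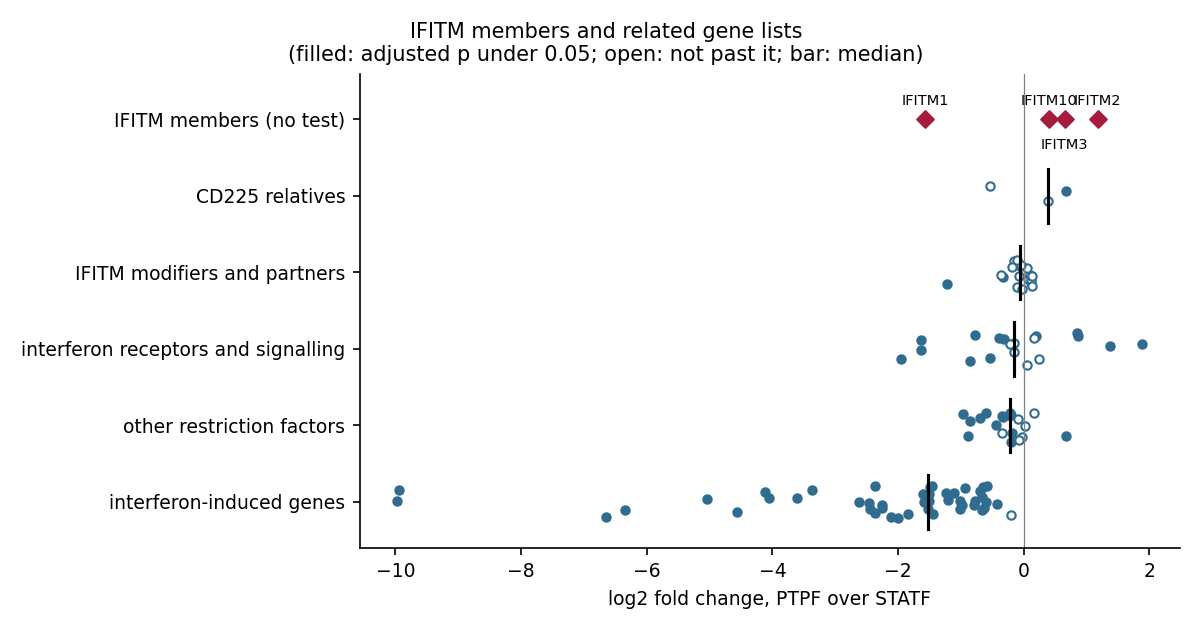
Log2 fold change (PTPF over STATF) of every tested gene in 5 lists, with the 4 IFITM genes as diamonds in the top row. Filled circles passed an adjusted p of 0.05 and bars are medians. IFITM1 falls within the interferon-induced genes and the other 3 members to their right, and the fitted values of the 2 leftmost genes, CXCL9 and IDO1, depend on the prior count because they had 0 and 1 counts in PTPF.

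Signalling genes that act upstream of IFITM1, IFITM2 and IFITM3 were split. Of 19 interferon receptor and signalling genes tested, 5 were higher and 8 lower in PTPF (68.4% called, against 21.6% of all genes), and the median was -0.16 (log2). IRF1, a transcription factor that binds ISRE-like sequences, had a log2 fold change of -1.64. Other genes share 22% of its exon bases. IRF9, a DNA-binding subunit of the complex that interferons activate, was at 1.26 ± 0.545 against 3.88 ± 0.177 CPM (SD, n = 3 each), and 48.4% of its exon bases are shared. Both passed the test. Besides STAT3, the feedback inhibitors SOCS3 and SOCS1 were higher in PTPF, at 106 ± 6.46 against 40.9 ± 1.44 CPM and at 18.3 ± 0.823 against 10 ± 0.86 CPM (SD, n = 3 each). Their log2 fold changes were 1.37 and 0.87.

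Other restriction factors, which also hinder viruses, were mostly lower. Of 20 tested, 13 were lower and 1 was higher (70% called, against 21.6% of all genes), the list median being -0.23. The cytidine deaminase APOBEC3G was at 2.74 ± 0.278 against 5.31 ± 0.192 CPM, the nucleotide hydrolase SAMHD1 at 48.2 ± 2.86 against 89.4 ± 2.26 and the antibody receptor TRIM21 at 19.5 ± 1.32 against 35.3 ± 2.25 (SD, n = 3 each). While 6 did not pass, the exception was NCOA7, which also acts in endosomes against virus entry. It stood at 82.7 ± 5.32 against 51.9 ± 3.76 CPM (SD, n = 3 each; log2 fold change 0.67, edgeR adjusted p = 4.08e-09), on the same side as IFITM2, IFITM3 and IFITM10. Counts per gene do not tell its transcripts apart.

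Enzymes that modify IFITM proteins and proteins that bind them were examined as well. Of 18 tested, 2 were lower, none was higher and 16 did not pass (11.1% called, against 21.6% of all genes), with a median log2 change of -0.06. CAV1, the coat protein of caveolae, was at 109 ± 4.47 against 253 ± 8.63 CPM (SD, n = 3 each; log2 fold change -1.22, edgeR adjusted p = 3.03e-15). AP2B1, a subunit of the endocytic adaptor that binds the sorting signal of IFITM3, was at 158 ± 5.03 against 198 ± 6.85 CPM (SD, n = 3 each; log2 fold change -0.33, edgeR adjusted p = 4.89e-05). Without PTPF replicate 1, 4 were lower and 1 was higher. The genes added were AP2M1, VCP and SETD7, named after their values were seen, with log2 fold changes of -0.17, -0.16 and 0.16. AP2M1 was also called lower under DESeq2 (adjusted p = 0.0207), limma-voom (adjusted p = 0.0403), a minimum of 50 counts (edgeR adjusted p = 0.0402) and a replicate block (edgeR adjusted p = 0.0482).

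Since both IFITM promoters held 2 ISRE-like matches, other genes with such promoters were counted, a choice made after the values of the members were seen. Leaving out the members, 35 tested genes had at least 2 matches, and 20 of them (57.1%) were lower in PTPF. Only TFG, a protein of the secretory pathway, was higher, by a log2 fold change of 0.21 (edgeR adjusted p = 0.00404; named after its value was seen). The median of the 35 genes was -0.44. Of them, 11 belong to the interferon-induced list, which was lower almost throughout, and TRIM21 and BST2 belong to the other restriction factors. The share of lower genes thus partly recounts those lists and is no separate result about the motif. Among 11190 tested genes with no match, 12.7% were lower and 11.5% higher, with a median of 0.00. IFITM1 lay within the range of the 35 genes, which ran from -4.05 to 0.21, and IFITM3, at 0.65, lay above it. For GAS-like matches the shares that passed in either direction were 24.6% of 752 tested genes with a match and 24.7% of 10785 without one. By direction, 14.9% were lower and 9.71% higher with a match, against 13.1% lower and 11.6% higher without one.

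Finally, the protein-coding genes with the most similar pattern over the 6 libraries were found for each member. Likeness was the root mean square difference between 2 genes' log2 CPM, each centred on its own mean, among 9653 or 9654 protein-coding genes averaging at least 3 on the log2 CPM scale. For IFITM1 the nearest were OAS1, an antiviral enzyme that senses double-stranded RNA, at a distance of 0.0664, IRF1 at 0.077 and the ubiquitin-like modifier ISG15 at 0.0783. For IFITM2 they were the glycosyltransferase GALNT15 at 0.0852, the calcium-binding protein S100A8 at 0.0898 and the chitinase-like protein CHI3L1 at 0.0908. IFITM3 was nearest to ORM1, an acute-phase plasma protein, at 0.0296, the signalosome subunit COPS3 at 0.0468 and the inflammatory caspase CASP4 at 0.0493. IFITM10 was nearest to the telomere-binding protein TERF1 at 0.0225, C2CD2 at 0.0306 and JMY, an actin regulator, at 0.0307. Between members the distance was 0.289 for IFITM2 and IFITM3 and 0.175 for IFITM10 and IFITM3. It was 1.35 for IFITM1 and IFITM2. As the 6 libraries form 2 groups, each distance includes the difference between the groups. The members were chosen on that difference, so the distances between them largely restate it. They say nothing on how reads of the shared exon were counted.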

How the data were processed

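Polyadenylated RNA of 6 HepaRG samples was sequenced, 3 labelled PTPF and 3 labelled STATF, grouped by title. The authors deposited raw counts per Ensembl gene, with the gene length in bases, an other unit, which equals the GENCODE 29 exon bases for the 4 members. The submitters' processing notes name featureCounts 1.5.0-p3, HISAT2 2.0.5, CASAVA 1.8 and GRCh38. Not given in the sources used here are the annotation release, read length, strand setting and treatment of reads that match several places or genes. As strand is not known, reads from a gene and from its antisense partner cannot be told apart, and counts of near-identical genes are uncertain.

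After a filterByExpr filter and TMM scaling, the whole table was tested in R 4.3.3 with the robust quasi-likelihood test of edgeR 4.0.16 on the group alone. Adjustment was by Benjamini-Hochberg over 17844 genes, at a threshold of 0.05. Positive log2 fold changes mean higher in PTPF. CPM values are TMM-scaled. The members and the 10 gene lists were chosen with earlier results of these data known. Named genes were the members, STAT3, PTPRD, up to 6 genes past the threshold per list or neighbourhood with the largest difference, up to 3 in the opposite direction, the nearest tested neighbours and 3 like genes per member. Some of these are given only in the counts. Libraries within a group differed by more than sampling noise (4.01 to 10.9 in chi-square per degree of freedom), and each counted as 1 replicate. The floors cover only counting error, because without molecular identifiers PCR copies count as separate reads.

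On data simulated for PTPF against STATF with 17844 genes, recovery was 80% for the 50 genes set to 1.5-fold. It was 96% for those set to 2-fold and 100% for those set to 4-fold or 8-fold, while 4.08% of the calls were false. The changed genes were drawn only from those above a minimum mean CPM. Recovery was therefore not measured for scarcer genes such as AC136475.3. The analysis was repeated with RLE, upper quartile or library-total scaling, with no filter or a minimum of 50 counts in 3 libraries, with DESeq2 1.42.0 and limma-voom (limma 3.58.1), and with a replicate block. Further alternatives were leaving out each library, windows of 100 and 500 kb, an adjusted p of 0.01 and levels per kilobase. The promoter motif counts used RefSeq promoters from 250 bases before to 50 bases after the start. Coding sequences were aligned with Biopython 1.88, with tables read by pandas 2.3.3 under Python 3.11.15.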

Additional observations from a re-analysis of the deposited data

How the results depend on the processing

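The members kept their directions under all 14 alternatives. The log2 fold change ranged from -1.67 to -1.48 for IFITM1, 1.07 to 1.29 for IFITM2, 0.59 to 0.73 for IFITM3 and 0.34 to 0.43 for IFITM10, whose lowest value, 0.34, came with library totals as the only scaling. The log2 ratio of the family sum (0.76) ranged from 0.70 to 0.84. Per kilobase, IFITM2 took 23.4% of the family in PTPF, and IFITM3 took 76% in PTPF and 81.6% in STATF. Library totals moved the median of all genes to -0.06 and the higher share of all calls from 46.6% to 28.1% (1164 higher and 2981 lower). With them, 1 neighbour was higher and 1 lower, 5 modifiers and partners were lower, and 2 mesenchymal markers were lower. At an adjusted p of 0.01, 1 neighbour and 0 CD225 relatives were higher. With a window of 100 kb 1 neighbour was higher, and with 500 kb 4 were higher and 4 lower of 50 tested (16%). Restriction factors higher in PTPF were 2 under RLE, upper quartile scaling, at least 50 counts or a replicate block, SERINC5 being the second. The cause of these shifts was not tested.

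Leaving out each library in turn gave 1 to 2 higher neighbours, 0 to 1 higher CD225 relatives, 0 to 1 higher and 2 to 4 lower modifiers and partners, and 1 to 2 higher restriction factors. Interferon-induced genes lower in PTPF were 45 to 46 under every alternative. Replicate numbers did not pair the libraries. Deviations of same-numbered libraries correlated at 0.0347, 0.0578 and 0.000769, and not every library correlated best with its own number. With the replicate block, 4145 genes passed in place of 3863, 2 restriction factors were higher and 3 modifiers and partners were lower, AP2M1 being the third. For IFITM1, 63 counts in PTPF limit the precision.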
